A study of Drosophila melanogaster with 2 samples.

Results

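Long noncoding RNA genes and antisense RNA genes were examined in hindguts of young and mature adult fruit flies, Drosophila melanogaster. The genes were those whose symbol starts with lncRNA: or asRNA:, with a mean of at least 10 normalized counts, on chromosome arm 2L from its tip to RpL21 or on 3L from its tip to AlaRS-m (BDGP6). They were selected on that mean, and whether they overlap a more abundant gene was also read from it; the log2 changes and p-values were not used. This rule took 72 of the 23932 rows of the authors' deposited table, 57 named lncRNA and 15 named asRNA, with 54 on 2L and 18 on 3L. All animals carried bynGal4, a Gal4 driver line named for brachyenteron, and were reared at 25 °C; the labels name no transgene driven by it and no sex. Young guts were dissected as the adults left the pupal case. Mature guts were dissected after 4 days at 18 °C, so age and temperature changed together. Each condition comprised 100 to 150 guts and 3 replicates, which the labels do not describe further. The deposited columns give for each gene a mean over the 6 libraries and a log2 change of young against mature, in which a positive value is higher in young guts; they hold no value per library.

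Long noncoding RNAs are transcribed much like messenger RNAs but carry no long reading frame that is known to be translated. Some are the precursors from which microRNAs are cut, some act on chromatin or on neighbouring genes, and for most fly loci known only by a CR number no role has been described. An antisense RNA is read from the strand opposite to another gene. Because the strand setting of the read counter was not given in the sources used here, reads from a gene and from its antisense partner may not have been told apart, and genes that overlap a more abundant gene are therefore described separately.

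The choice of stretches rests on a check of gene names against levels. The 19 cytoplasmic ribosomal protein genes inside the stretches had a lowest mean of 28247 by the authors' deposited table, while the 66 elsewhere had a median mean of 1.33, so names elsewhere were not used. Noncoding genes showed the same break from the other side. Of lncRNA and asRNA rows inside the stretches, 10.1% (72 of 712) had a mean of at least 10 by the authors' deposited table, against 29.8% (513 of 1723) elsewhere. The hindgut genes drm and cad, which encode a zinc finger and a homeobox transcription factor, had means of 13433 and 4806 by the authors' deposited table; byn itself lies outside the stretches.

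Most annotated lncRNA and asRNA genes of the stretches were scarcely seen in the hindgut. Of the 712 rows, 411 were listed at 0, 229 lay above 0 and below 10, and 72 reached 10. Protein-coding genes of the same stretches reached a mean of 10 in 67.2% of 3251 rows. The mean was also what chose the genes, so these levels are a description. Just inside the limit lay lncRNA:CR45359 (mean 10.4), lncRNA:CR43717 (10.4) and lncRNA:CR45809 (11.2) by the authors' deposited table. Just outside lay lncRNA:CR43337 (9.96), asRNA:CR45789 (9.77) and lncRNA:CR44773 (9.76) by the authors' deposited table.

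Levels per length were far below those of protein-coding genes, with a few exceptions. Per exonic kilobase the 72 genes had a median mean of 40.4 normalized counts, against 476 for the 2186 protein-coding genes with a mean of at least 10, and 4 of the 72 lay above that protein-coding median. Those 4 were lncRNA:CR42862 at 25170 per exonic kilobase, lncRNA:CR31781 at 1988, lncRNA:CR45985 at 1875 and lncRNA:CR44914 at 537. The gene lncRNA:CR42862 (3L, 224106 to 230964, plus strand, 4 exons) had a mean of 138057 by the authors' deposited table, the rank of 7 among all 5237 features of the stretches and of 55 per exonic kilobase. It held 93.2% of the summed mean of the 72 genes, so the other 71 together came to 9994 normalized counts. A single exon was annotated for 51.4% of the 72 genes and for 10.9% of the protein-coding genes, and the median exonic length was 921 and 2021 bases. The lncRNA and asRNA rows below the limit were shorter still, with a median exonic length of 599 bases.

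**Figure D1:**
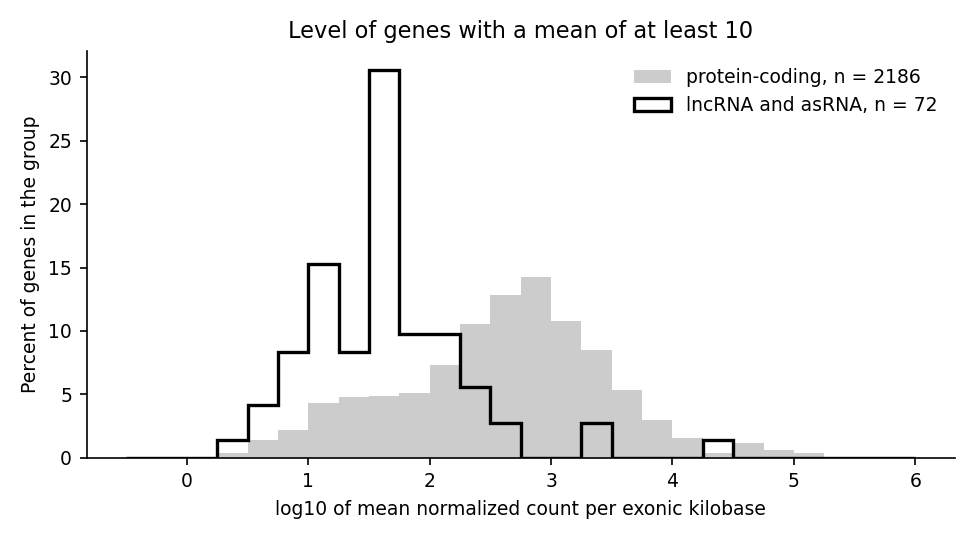
Distribution of the mean normalized count per exonic kilobase (log10, x axis) as a percent of genes in each group (y axis), for 72 lncRNA and asRNA genes (black outline) and 2186 protein-coding genes (grey), all with a mean of at least 10. The outline lies mostly to the left of the grey, with medians of 40.4 and 476, and the bar at the far right of the outline is lncRNA:CR42862 at 25170.

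Of the 72 genes, DESeq2's Wald test with an adjusted p under 0.05 put 4 higher in young and 8 higher in mature guts, which is 16.7%. Of all 2604 features tested in the stretches, here meaning those with an adjusted p, 40.3% passed. Tissue was sampled in bulk, so fewer cells of a type and less RNA per cell cannot be told apart. Counts differed between these sets, so shares were also taken within ranges of the mean. Among the 60 genes with a mean under 100, 6 passed (10%), against 16.1% of 566 features of that range, and among the 12 with a mean of at least 100, 6 passed (50%), against 50.2% of 1877 features. The median log2 change of the 72 genes was 0.04 and the median absolute change was 0.29, against -0.0070 and 0.38 over all tested features of the stretches. At means of 10 to 100 the median absolute change was 0.28 for the 60 genes and 0.45 for the 566 features, with median standard errors of 0.51 and 0.49; this difference was not tested. Of the 72 genes, 9 passed with an estimate of at least 2-fold, as did 13.6% of the tested features of the stretches. Tested against a fold of 2, asRNA:Eig63F-2 and lncRNA:CR44914 of the 72 passed. The share of all tested features that pass this stricter test was not taken, so that count has no background.

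The 60 genes that did not pass were mostly measured too coarsely to bound a change. Their log2 changes ran from -1.18 (asRNA:CR46263) to 1.15 (lncRNA:CR43932) by the authors' deposited table. The 95% interval, from the standard error on a normal scale, reached a 2-fold change in at least 1 direction for 48 of them and stayed inside 2-fold for 12. The standard error of the whole table had a ceiling of 0.53, and the median over the 72 genes was 0.50. Standard errors were smaller again at the lowest means, 0.259 for Acp26Aa (mean 0.359) and 0.263 for ProtB (mean 0.671). Whether log2 changes at low means were pulled toward 0 in the fit was not tested. The folds and intervals of genes with low means may therefore not show their full uncertainty.

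**Figure D2:**
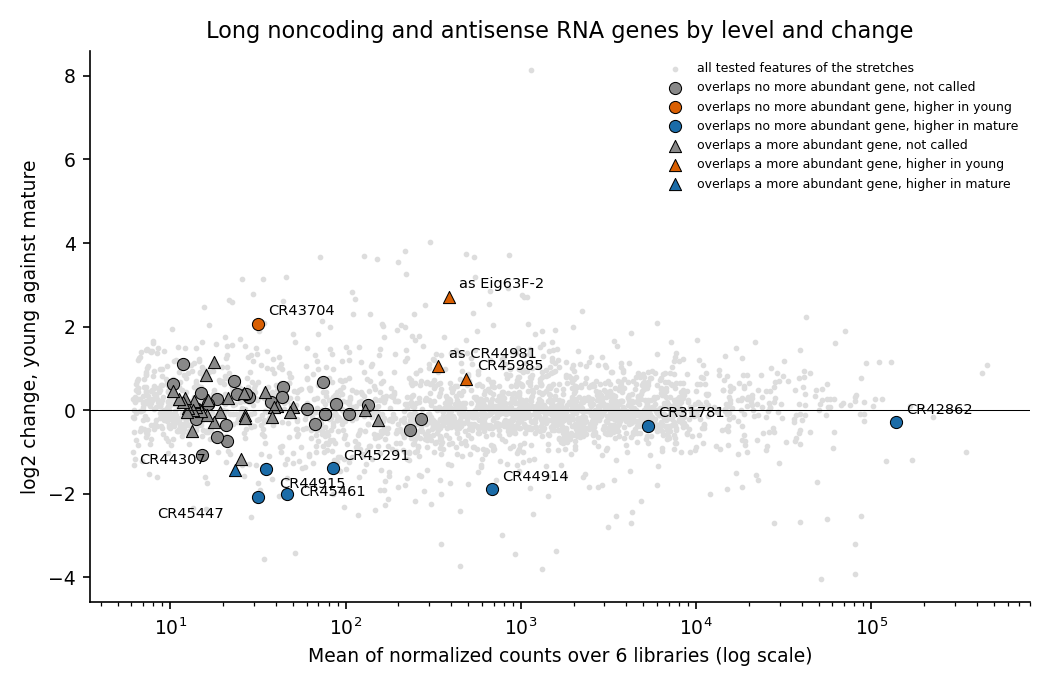
Mean of normalized counts over the 6 libraries (log scale, x axis) against the log2 change of young against mature guts (y axis) for the 72 lncRNA and asRNA genes and, in grey, all tested features of the stretches; circles overlap no more abundant gene, triangles do, and colours mark genes that passed an adjusted p under 0.05. Most of the 72 lie at means under 100 and close to 0, while lncRNA:CR44914 at -1.89 and asRNA:Eig63F-2 at 2.71 stand apart.

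A more abundant gene overlapped 35 of the 72 and none overlapped the other 37, counting any shared base of the gene bodies on either strand. Among those 37, 8 passed (21.6%), 7 of them higher in mature guts and 1 higher in young, while in the stretches 19.7% of tested features were higher in mature and 20.7% higher in young. Among the 35 that overlap a more abundant gene, 4 passed (11.4%), 3 higher in young and 1 higher in mature. Whether these splits differ was not tested. The 8 include 2 pairs of near neighbours, so they stand at 6 places of the genome.

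The clearest change toward mature guts was at the gene Nlg2, a neuroligin, a family of cell adhesion proteins of synapses. The gene lncRNA:CR44914 (FBgn0266219; 2L, 6872714 to 6874378, plus strand) had a mean of 684 and was 3.72-fold higher in mature guts by the authors' deposited table (log2 -1.89 ± 0.16 SE, adjusted p = 1.43e-29). It ends 521 bases before Nlg2, on the same strand, and Nlg2 was itself 10.3-fold higher in mature guts by the authors' deposited table (log2 -3.36 ± 0.18 SE). On the minus strand, 177 bases away from lncRNA:CR44914 and pointing the other way, lncRNA:CR44915 had a mean of 35.3 and was 2.66-fold higher in mature by the authors' deposited table (log2 -1.41 ± 0.52 SE, adjusted p = 0.0243). The gene on the other side, the sodium-proton antiporter gene Nha1, stood at a log2 change of 0.11 (adjusted p = 0.386) at a mean of 165721 by the authors' deposited table. All 3 transcripts at Nlg2 were thus higher in mature guts, and the far more abundant gene 945 bases from lncRNA:CR44915 did not pass.

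A row of lncRNA genes on the plus strand leads up to Ttc30, which encodes a protein of intraflagellar transport, the traffic of cargo along cilia. The gene nearest to it, lncRNA:CR45461 (FBgn0267017; 2L, 13104719 to 13105263), lies 1543 bases before Ttc30 and was 3.99-fold higher in mature by the authors' deposited table (mean 46.4, log2 standard error 0.48, adjusted p = 0.000223). Farther out, lncRNA:CR45447 (FBgn0267003; 2L, 13096994 to 13097298) lies 9508 bases before Ttc30 and was 4.23-fold higher in mature by the authors' deposited table (mean 31.5, log2 -2.08 ± 0.50 SE, adjusted p = 0.000174). Ttc30 itself was 9.21-fold higher in mature guts by the authors' deposited table (mean 348, log2 -3.20 ± 0.24 SE). The outermost gene of the row, lncRNA:CR44197, 16247 bases from Ttc30, had the highest mean of the 3 at 76.3 and a log2 change of -0.10 (adjusted p = 0.904) by the authors' deposited table. The authors placed lncRNA:CR45461 and lncRNA:CR45447 on their own list of 91 mature features, a selection from the same comparison.

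**Figure D3:**
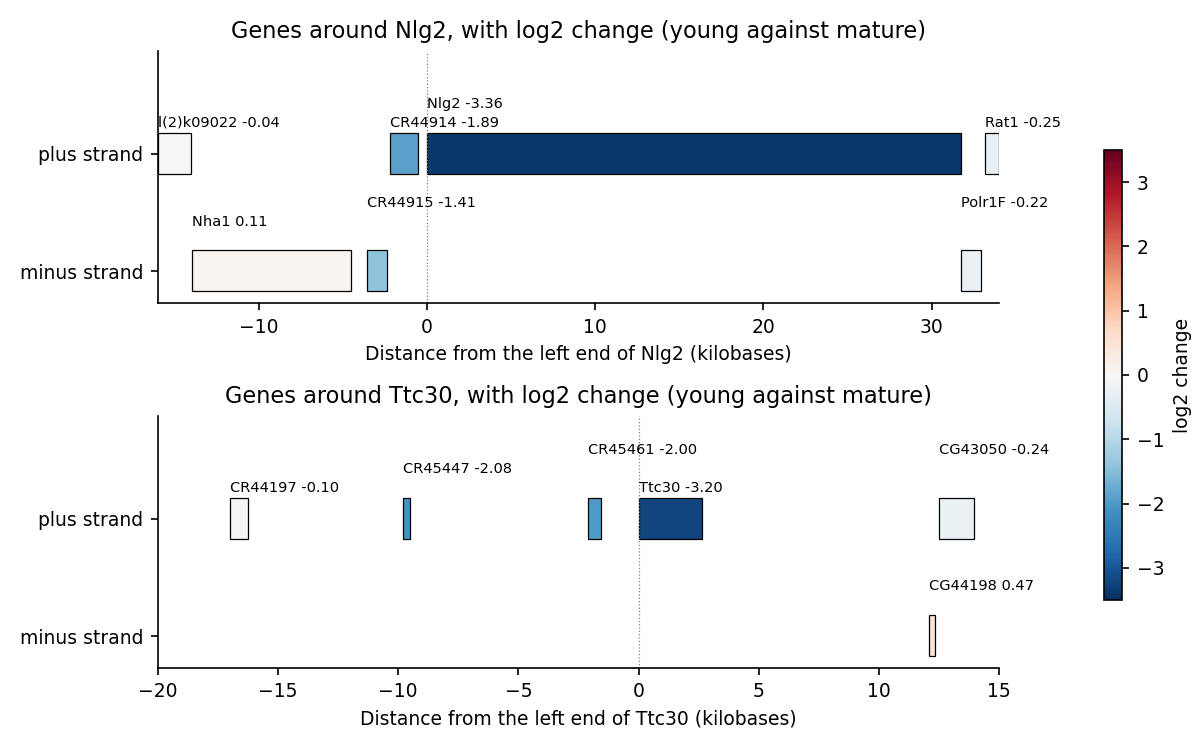
Genes with a mean above 0 around Nlg2 (top) and Ttc30 (bottom), drawn to scale by distance from the left end of each gene in kilobases (x axis) and by strand (y axis), with the colour and printed number giving the log2 change of young against mature. The lncRNA genes just left of Nlg2 (-1.89 and -1.41) and of Ttc30 (the inner one 3.99-fold and the outer one 4.23-fold higher in mature) share its blue colour, whereas Nha1 (0.11) and lncRNA:CR44197 (-0.10) are near white.

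The other 4 genes that passed without overlapping a more abundant gene had a nearest protein-coding gene that did not pass or had no adjusted p. The gene lncRNA:CR43704 (FBgn0263843; 2L, 3769926 to 3770454) was the only one of the 37 higher in young guts at an adjusted p under 0.05, 4.20-fold at a mean of 31.5 by the authors' deposited table (log2 2.07 ± 0.52 SE, adjusted p = 0.000389). It lies between CG43707, at a log2 change of 0.80 (adjusted p = 0.135), and bowl, a zinc finger gene of hindgut patterning, which was higher in mature guts (-0.29, adjusted p = 0.0137) by the authors' deposited table. The gene lncRNA:CR45291 (FBgn0266829; 2L, 5060473 to 5060806) was 2.61-fold higher in mature guts at a mean of 84.6 by the authors' deposited table (log2 -1.38 ± 0.35 SE, adjusted p = 0.000437). Its neighbours had log2 changes of -0.16 for qtc, 8 bases away, and -0.11 for the proteasome subunit gene Rpn11, 682 bases away, neither of which passed by the authors' deposited table.

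The abundant pair of lncRNA genes changed little but measurably. The gene lncRNA:CR42862 was 1.22-fold higher in mature guts by the authors' deposited table (log2 -0.29 ± 0.07 SE, adjusted p = 0.000246). CG33229, a less abundant gene on the same strand that overlaps it, had a mean of 3445 and a log2 change of 0.19 (adjusted p = 0.209) by the authors' deposited table. The gene lncRNA:CR31781 (FBgn0051781; 2L, 16869346 to 16878300, 4 exons), which overlaps no annotated gene, was 1.29-fold higher in mature guts at a mean of 5326 by the authors' deposited table (log2 -0.37 ± 0.10 SE, adjusted p = 0.00164). Both changes are small beside the fold of 2, yet lie several standard errors from 0.

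Among genes that overlap a more abundant gene, the largest change was that of asRNA:Eig63F-2 (FBgn0004911; 3L, 3934718 to 3935992, plus strand). Its name stands for an ecdysone-induced gene and the polytene band it lies in, ecdysone being the steroid hormone of moulting and metamorphosis. It had a mean of 388 and was 6.56-fold higher in young guts by the authors' deposited table (log2 2.71 ± 0.26 SE, adjusted p = 1.61e-24), and the authors placed it on their list of 132 young features. The gene it overlaps on the opposite strand, Eip63F-1, another gene named for induction by ecdysone, encodes a calcium-binding protein and was higher in young by a smaller amount by the authors' deposited table (mean 5543, log2 0.76 ± 0.10 SE). The antisense change exceeded that of Eip63F-1 by 1.95 on the log2 scale, with a joined standard error of 0.28 that treats both estimates as independent.

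The remaining 3 that passed moved in the same direction as the gene they overlap. The gene asRNA:CR44981 (2L, 20874114 to 20875540) had a level 2.07-fold higher in young guts at a mean of 338 by the authors' deposited table (log2 1.05 ± 0.21 SE, adjusted p = 6.62e-06), and sky, which encodes a Rab GTPase-activating protein of synapses, stood at a log2 change of 0.53. The gene lncRNA:CR45985 (3L, 5142520 to 5142780) was 1.68-fold higher in young at a mean of 489 by the authors' deposited table (log2 0.75 ± 0.19 SE, adjusted p = 0.000314). It lies between exons of Gdap1, a gene of mitochondrial dynamics in other animals, on the opposite strand, and Gdap1 had a mean of 602 and a log2 change of 0.58 by the authors' deposited table. That gene sits 7072 bases from the end of the 3L stretch, where names cease to match levels. The gene lncRNA:CR44307 (2L, 20847844 to 20848143) was 2.69-fold higher in mature guts at a mean of 23.3 by the authors' deposited table (log2 -1.43 ± 0.52 SE, adjusted p = 0.0235), and the overlapping CG31676 stood at a log2 change of -2.54 at a mean of 3511.

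**Figure D4:**
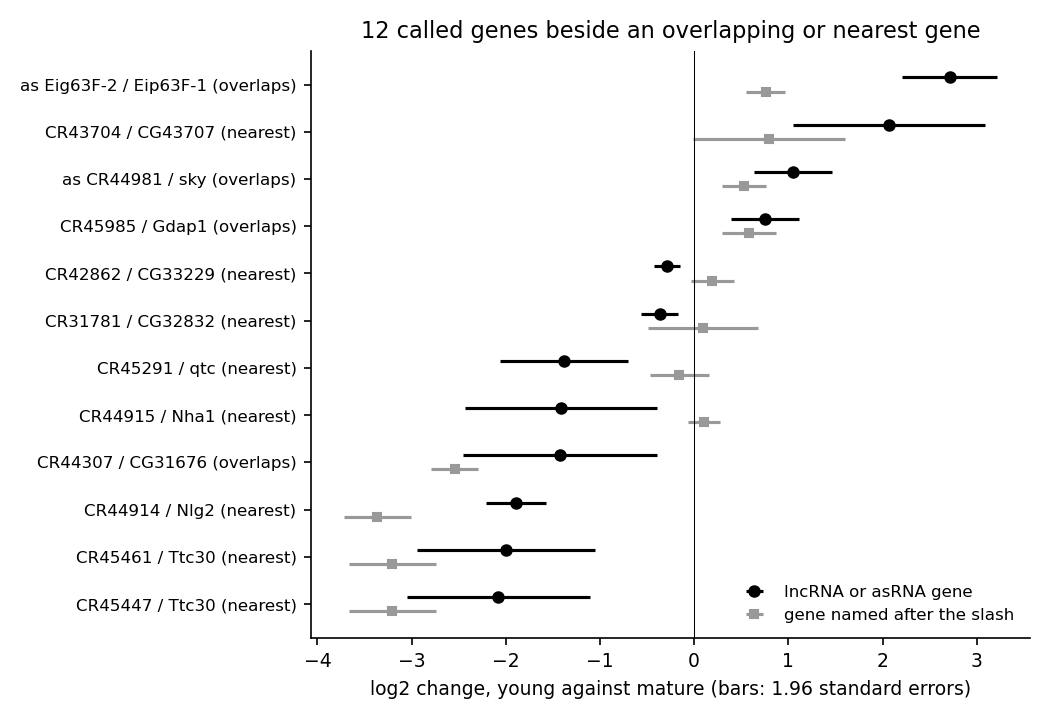
Log2 change of young against mature guts (x axis) for the 12 genes that passed (black circles) and for the more abundant gene each overlaps, or its nearest protein-coding gene where it overlaps none (grey squares); bars are 95% intervals. All 4 that overlap a more abundant gene lie on the same side of 0 as that gene, while lncRNA:CR44915, lncRNA:CR45291, lncRNA:CR31781 and lncRNA:CR42862 lie to the left of a neighbour near 0.

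Over all 35 overlapping pairs, the change of the noncoding gene followed that of its partner only loosely. Pearson's r of the log2 changes was 0.36 and Spearman's rho 0.19 across pairs, which share the 6 libraries and possibly reads. In 30 pairs the genes lie on opposite strands and in 5 on the same strand, and exons overlap in 20. The noncoding gene had a median of 0.333% of its partner's mean, from 0.0327% to 81.3%. In 26 of the 35 pairs the partner passed the test. Of all tested features of the stretches 40.3% did, and 50.2% of those with a mean of at least 100. Partners were taken for their higher mean. The noncoding gene's estimate had the same sign in 17 of these 26 pairs, and in 21 of all 35. In 4 of the 26 the noncoding gene passed as well, and these were all that passed among the 35.

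Some estimates lay far from those of the overlapped gene, though the noncoding gene itself did not pass. At CG3625, which was higher in young guts (log2 1.12 ± 0.13 SE), asRNA:CR46263 stood at a log2 change of -1.18 (SE 0.51, adjusted p = 0.0645) at a mean of 25.3 by the authors' deposited table. The difference was -2.29 with a joined standard error of 0.53. At DIP-iota, an immunoglobulin-domain cell surface gene of neurons that was higher in mature guts (log2 -1.67), lncRNA:CR44913 stood at a log2 change of 0.19 (adjusted p = 0.844) at a mean of 11.8 by the authors' deposited table. Differences beyond 2 joined standard errors were found for 5 of the 35 pairs, these being asRNA:Eig63F-2, asRNA:CR46263, lncRNA:CR44913, asRNA:CR44981 and lncRNA:CR44307. Standard errors were unequal within pairs, as for lncRNA:CR44307 (0.52) beside CG31676 (0.13) and lncRNA:CR44913 (0.53) beside DIP-iota (0.29). Any pull of estimates toward 0 at low means would be unequal too. A gap between 2 estimates need not be a difference in change, and this was not tested.

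Among the 37 genes free of a more abundant overlapping gene, 36 had a nearest protein-coding gene with a log2 change, and 22 of the 37 lay within 1000 bases of one. Pearson's r of the log2 changes was 0.47 and Spearman's rho 0.29 over these 36 pairs, and 19 pairs had the same sign. Without lncRNA:CR44914, lncRNA:CR44915, lncRNA:CR45461 and lncRNA:CR45447, the passing genes near Nlg2 and Ttc30, which were picked after their values were seen, r was -0.03 over 32 pairs. Of these 4, lncRNA:CR44915 was paired with Nha1, and lncRNA:CR44197, also paired with Ttc30, was kept. The nearest gene passed the test in 12 of the 36 pairs, where 40.3% of all tested features of the stretches did. Some of these nearest genes had no adjusted p. The noncoding gene passed in the same direction in 3 of the 12. The comparison with nearest genes was chosen after the values were seen.

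**Figure D5:**
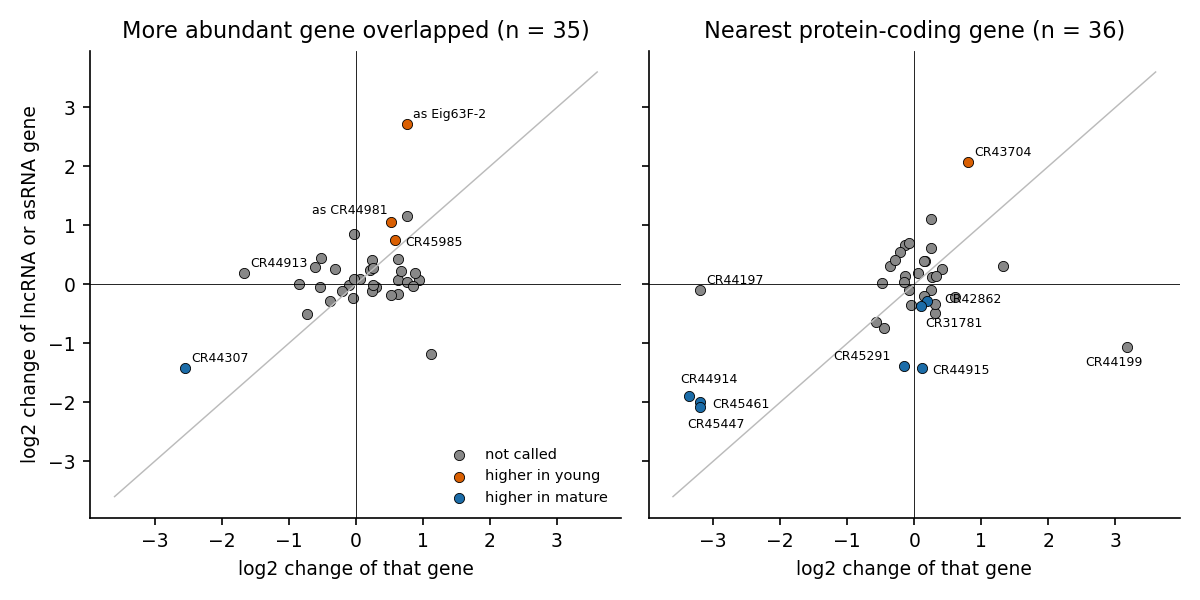
Log2 change of each lncRNA or asRNA gene (y axis) against that of the more abundant gene it overlaps (left, 35 pairs) or of its nearest protein-coding gene (right, 36 pairs); the grey diagonal marks equal change. Points scatter around 0 in both panels, with lncRNA:CR44914, lncRNA:CR45461 and lncRNA:CR45447 at the lower left on the right and asRNA:CR46263 below the axis at 1.12 on the left.

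Precursors of microRNAs made up 5 of the 72 genes, each spanning a microRNA gene on its own strand, and none of the 5 passed. MicroRNAs are short RNAs that repress messenger RNAs. The gene lncRNA:CR43334 (3L, 628435 to 643900) spans bantam, a microRNA that promotes growth and survival, and had a mean of 268 and a log2 change of -0.22 (SE 0.26, adjusted p = 0.599) by the authors' deposited table. Its 95% interval, -0.73 to 0.29, stayed inside 2-fold. The gene lncRNA:CR43314 spans bereft (mir-bft) and stood at a log2 change of -0.09 (SE 0.36, adjusted p = 0.891) at a mean of 76.2 by the authors' deposited table. Both lay within 1 standard error of 0.

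The gene lncRNA:let7C, the precursor of let-7, mir-100 and mir-125, which time the passage to the adult state, stood at a log2 change of 0.06 (SE 0.45, adjusted p = 0.940) at a mean of 38.9 by the authors' deposited table. It overlaps the more abundant CG10283, which stood at a log2 change of 0.63. The gene lncRNA:CR45361 spans mir-1, the muscle microRNA, and stood at a log2 change of 1.11 (SE 0.53, adjusted p = 0.101) at a mean of 11.9 by the authors' deposited table. Its neighbour lncRNA:CR45359, 1759 bases away on the same strand, stood at a log2 change of 0.62 (adjusted p = 0.415) by the authors' deposited table. Muscle markers of the stretches went both ways, with the myosin heavy chain gene Mhc at 0.90, sls at 0.63 and Msp300 at -0.21. No link of these to lncRNA:CR45361 was tested. The gene lncRNA:CR45345, which spans mir-375, stood at a log2 change of -0.64 (adjusted p = 0.410) at a mean of 18.5 by the authors' deposited table. The 7 microRNA genes themselves were listed at 0, as were 52 of the 59 microRNA gene rows of the stretches. A row at 0 does not show that a microRNA was absent. The 7 lie inside their hosts on the same strand, so reads there may not have been counted for them. This was not tested.

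Among other genes that did not pass, some lie opposite the same gene. On the strand opposite to Scsalpha1, a tricarboxylic acid cycle gene with a log2 change of 0.76, lncRNA:CR43932 stood at a log2 change of 1.15 (adjusted p = 0.0857) and lncRNA:CR45034 one of 0.04 (adjusted p = 0.967) by the authors' deposited table. On the strand opposite to kis, a chromatin remodelling gene at -0.02, lncRNA:CR44222 stood at a log2 change of 0.85 (adjusted p = 0.224) and lncRNA:CR44218 one of 0.09 (adjusted p = 0.918) by the authors' deposited table. Opposite to the titin-like gene sls, asRNA:CR42860 stood at a log2 change of 0.43 (adjusted p = 0.547) by the authors' deposited table. Other abundant genes were lncRNA:CR43148, which lies 118 bases from Df31 and had a mean of 234 and a log2 change of -0.49 (adjusted p = 0.190), and lncRNA:CR43241 (mean 152, log2 -0.23, adjusted p = 0.569) by the authors' deposited table. With them stood lncRNA:CR44874 (mean 135, log2 0.12, adjusted p = 0.846) and asRNA:CR44987 (mean 129, log2 -0.01, adjusted p = 0.991) by the authors' deposited table. None of the noncoding genes in these groups passed.

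Genes that process or degrade noncoding RNA were counted as well. Of 13 such genes tested in the stretches, among them exosome, Integrator, nonsense-mediated decay and dosage compensation genes, 2 were higher in mature guts and none in young, with a median log2 change of -0.21; over all tested features of the stretches 19.7% were higher in mature, 20.7% higher in young, and the median was -0.0070. Those 2 were Smg5 (log2 -0.31, adjusted p = 0.00935), of nonsense-mediated decay, and msl-1 (-0.46, adjusted p = 0.0300), a scaffold of the male X chromosome complex, by the authors' deposited table. The exosome helicase gene Mtr4 (-0.41, adjusted p = 0.0664) and the exoribonuclease gene Rat1 (-0.25, adjusted p = 0.0659) did not pass by the authors' deposited table. The exosome subunit genes Rrp40, Ski6 and Csl4 had log2 changes of -0.30, -0.21 and -0.18 by the authors' deposited table, and none of them passed.

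Markers of other tissues that a dissected hindgut could carry moved in both directions. Toward mature guts, the authors' deposited table put twe, from the testis and male germline list (mean 176, log2 -1.48 ± 0.53 SE, adjusted p = 0.0185). It also put there the neuron marker nSyb (mean 158, log2 -1.91 ± 0.33 SE) and the midgut protease gene Jon25Bi (mean 26.5, log2 -1.58 ± 0.53 SE). Toward young guts, it put the muscle genes Mhc (log2 0.90) and sls (0.63), the tracheal gene trh (0.58), the hemocyte genes NimC1 (1.54) and Sr-CI (1.43) and the larval serum gene Lsp1beta (2.84) of the fat body. Within muscle, hemocyte and fat body lists, Msp300 (-0.21), crq (-0.57) and FASN1 (-0.52) went the other way and passed as well, by the authors' deposited table. Of 6 testis and male germline markers in the stretches 2 had an adjusted p and 1 of these passed, where 40.3% of all tested features did, and the protamine genes ProtA and ProtB stood at means of 0 and 0.671 by the authors' deposited table. Of 3 neuron markers 2 had an adjusted p, and of these nSyb passed and Syt1 (mean 43.3, log2 0.98, adjusted p = 0.0739) did not. VGlut, without an adjusted p, stood at a mean of 2.28 by the authors' deposited table. Of 3 midgut markers 2 had an adjusted p, and of these Jon25Bi passed and Jon25Bii (log2 -0.23, adjusted p = 0.599) did not. The most abundant of the 3, Jon25Biii (mean 778, log2 -0.46), had no p-value. Among 7 accessory gland markers (means up to 14.7) 2 had an adjusted p, and among 4 ovary and eggshell markers (up to 215) 3 did. All 3 Malpighian tubule markers (up to 600.3) had one as well, and none of these passed. The tubule markers stood at log2 changes of -1.16 ± 0.52 SE (Uro), -0.02 ± 0.50 SE (Irk3) and -0.63 ± 0.45 SE (tsh). With standard errors of that size, not passing does not show a like level at both ages. The part of all these tissues in the changes of the noncoding genes was not tested, and no summed level per age can be had from these columns.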

How the data were processed

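Total RNA of young and mature hindguts was sequenced in read pairs, per the labels' protocols. The submitters' processing notes name Trim Galore, HISAT2, DESeq2 and BDGP6, with no version. The read counter was not given in the sources used here, nor its strand setting or annotation. The deposited table by the authors holds 1 row per feature: a mean of normalized counts (a signal that is never negative), a log2 fold change with its standard error, a Wald score, and a p-value with its Benjamini-Hochberg adjustment over 10458 features, per the file headers. Recomputing that adjustment gave the same values. The planned edgeR fit needs library counts, not analysed here, so the authors' DESeq2 test stands, at an adjusted p under 0.05. Depth per library is unknown; the means sum to 2.94e+07. Nothing says the replicates are separate cultures or animals, so p-values reflect spread among libraries alone, possibly technical.

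Identifiers were matched to Ensembl release 115 (23851 of 23932 rows) for symbols, 1-based positions, strands and exons; exonic length is the union of a gene's exons. Overlap was at least 1 shared base of gene bodies. Named genes were, without a more abundant overlapping gene, up to 8 that passed per direction and the 6 highest means; with one, up to 5 per direction, the 5 highest means and the 5 farthest from their partner; also genes with a given name, microRNA hosts and those at the limit. Other named genes were chosen after their values were seen. The members and lists were chosen with earlier results of these data known. The code for Wald p-values and their adjustment was checked on simulated log2 changes drawn with the deposited standard errors. No counts were simulated, so the authors' fit was not checked. Work was done in Python 3.11.15 with matplotlib 3.10.9, scipy 1.17.1, numpy 2.4.6 and pandas 2.3.3. Sequences were not used here.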

Additional observations from a re-analysis of the deposited data

How the results depend on the processing

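The 12 calls were the same genes when p-values were adjusted over every feature with a p or over the stretches alone, and 10 remained at an adjusted p under 0.01, which lost lncRNA:CR44307 and lncRNA:CR44915. Recentring on the ribosomal protein genes (median log2 change 0.17) kept all 12 and added lncRNA:CR44199 and asRNA:CR46263 (-1.35, adjusted p = 0.0256), both toward mature. A Wald test against a fold of 2 left 2 calls, asRNA:Eig63F-2 (1 higher in young) and lncRNA:CR44914 (1 higher in mature, and 1 without a more abundant overlapping gene). A limit of a mean of 5 gave 14 calls among 100 genes and a limit of 20 gave 12 among 44. A limit of 100 left 6 calls among 12 genes, 3 higher in mature, and 3 without a more abundant overlapping gene, since fewer genes are counted. Of all features with a mean of at least 100, 50.2% of 1877 passed, against 16.1% of 566 at means of 10 to 100. Chosen after seeing the data, leaving out lncRNA:CR45985 gave 11, and counting only the 29 genes that overlap no annotated gene body gave 7, of which 1 was higher in young. No share over all features was taken for the other settings, the test against a fold of 2 among them, so their counts have no background.

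The number of genes free of a more abundant overlapping gene was 37, and 52 when exons had to overlap, 38 by mean per exonic kilobase, 67 when only the same strand counted and 17 when gene bodies were widened by 1000 bases. The correlation of 0.36 between overlapping pairs was 0.19 as Spearman's rho and 0.34 without asRNA:Eig63F-2 (chosen after seeing the data). Over the 20 pairs whose exons overlap it was 0.19, with the same sign in 15. Over the 15 pairs whose exons do not overlap it was 0.63, but 0.17 as Spearman's rho, with the same sign in 6. The cause was not tested. At a mean of at least 100 only 5 pairs were left and no correlation was computed. Alternatives that need counts per library were not run. No paired analysis was possible because only results over all 6 libraries were used here. Precision is limited at these counts: 48 of the 60 genes that did not pass had an interval reaching 2-fold.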
